A study of Caenorhabditis elegans with 2 samples.

Results

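The 261 genes annotated as microRNA genes on the 6 nuclear chromosomes of C. elegans were examined for binding of SDC-2. They were all genes of that biotype in the Ensembl annotation of WBcel235, out of 46890 annotated genes. Of these microRNA genes, 74 lay on X and 187 on the 5 autosomes, and the 7 with an annotated primary transcript were mir-8210, let-7, mir-8196.2, mir-8196.1, mir-8199, mir-8192 and mir-8209. The other 254 were annotated only as a hairpin, with a median length of 95 bp over all 261 genes. X held 28.4% of the microRNA genes, 13.7% of the protein-coding genes and 17.7% of the nuclear sequence.

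SDC-2 was pulled down from sonicated chromatin through its tag, with an antibody to GFP, and the bound DNA was sequenced (chromatin immunoprecipitation, ChIP-seq). All chromatin came from 1 group, whole hermaphrodites of the transgenic strain OP92 at the late embryonic stage. This line stably expresses SDC-2 with GFP and FLAG at the C terminus, and embryos were collected 3.25 hours after egg bleaching. The group had 2 biological replicates, and signal from an untagged strain was not analysed here. Each gene was assigned the peak summits within 1000 bp of its annotated 5′ end. The main list held the 1344 peaks kept by the authors after filtering on IDR, the irreproducible discovery rate, which measures how well the ranks of replicates match, and 1343 of them were nuclear. A list called on both replicates together held 26640 peaks and background regions, and the replicate lists held 25174 and 24450. The signal is the value that the authors' peak caller gave to each peak, and it is compared only within a list. The IDR peaks carry their pooled signal and ranks, and no list gives read counts, so the sequencing depth is unknown.

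MicroRNAs are short regulatory RNAs. A long primary transcript folds into hairpins, the nuclear enzyme Drosha cuts them out, Dicer trims them, and an Argonaute protein carries the mature strand to messenger RNAs that pair with its seed, bases 2 to 8. The annotated 5′ end of a hairpin is therefore usually not a transcription start, and several hairpins can share a primary transcript. SDC-2 is the protein that sets the hermaphrodite mode of X expression: it recruits the dosage compensation complex to recognition sites on X, and it also represses the autosomal sex determination gene her-1.

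The mature microRNAs at the centre of the results below are printed first, from RefSeq and the WBcel235 genome, 5′ to 3′, with the seed in capitals. The members of the mir-51 family share the seed ACCCGUA, and worms that lack the family die as embryos. Its genes were mir-51 (chrIV:11026013-11026112, minus strand), mir-52 (chrIV:14034008-14034107, plus), mir-53 (chrIV:11027593-11027691, minus), mir-54 (chrX:13144996-13145094, minus), mir-55 (chrX:13144827-13144924, minus) and mir-56 (chrX:13144691-13144787, minus).
mir-51: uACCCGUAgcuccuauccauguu
mir-52: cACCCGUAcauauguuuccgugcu
mir-53: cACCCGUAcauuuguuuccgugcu
mir-54: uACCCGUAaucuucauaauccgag
mir-55: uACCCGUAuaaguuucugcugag
mir-56: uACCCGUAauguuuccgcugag

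The bantam-related genes mir-58.1 (chrIV:3233254-3233350, plus), mir-80 (chrIII:8865270-8865367, minus), mir-81 (chrX:2431072-2431179, plus) and mir-82 (chrX:2435258-2435354, minus) make abundant microRNAs that act redundantly in growth and movement. They are shown because their places in the lists differed. The seed GAGAUCA of mir-80, mir-81 and mir-82 is not identical to that of mir-58.1, and it also occurs in mir-58.2, Y73B6A.17 and mir-2209.1 on chromosome IV.
mir-58.1: uGAGAUCGuucaguacggcaau
mir-80: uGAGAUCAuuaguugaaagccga
mir-81: uGAGAUCAucgugaaagcuagu
mir-82: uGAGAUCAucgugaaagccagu

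The let-7 family, printed because a single member had an IDR summit, times larval development, and let-7 itself is the founding member. The genes were let-7 (chrX:14743590-14745321, minus), mir-48 (chrV:14364412-14364509, minus), mir-84 (chrX:16022404-16022478, minus) and mir-241 (chrV:14366188-14366283, minus).
let-7: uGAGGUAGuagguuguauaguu
mir-48: uGAGGUAGgcucaguagaugcga
mir-84: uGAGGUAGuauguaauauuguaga
mir-241: uGAGGUAGgugcgagaaauga

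The DNA under the summits is shown for the strongest summit beside an X and beside an autosomal microRNA gene, for the summit beside mir-54, and for the one near mir-90 that held a motif. Each run covers 60 bp to either side of the summit on the plus strand of WBcel235, at chrX:1880851-1880971, chrIV:11026141-11026261, chrX:13145232-13145352 and chrIII:8874392-8874512. Capitals mark the repeat GAGAGAGA and are used in the last run alone.
summit near mir-4921: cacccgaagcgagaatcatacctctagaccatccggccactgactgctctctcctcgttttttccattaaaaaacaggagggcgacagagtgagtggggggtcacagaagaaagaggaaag
summit near mir-51: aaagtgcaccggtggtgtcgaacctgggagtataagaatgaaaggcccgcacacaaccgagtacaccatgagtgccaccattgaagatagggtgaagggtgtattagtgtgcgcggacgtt
summit near mir-54: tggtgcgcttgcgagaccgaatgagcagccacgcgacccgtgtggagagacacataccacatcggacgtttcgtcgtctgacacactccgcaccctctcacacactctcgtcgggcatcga
summit near mir-90: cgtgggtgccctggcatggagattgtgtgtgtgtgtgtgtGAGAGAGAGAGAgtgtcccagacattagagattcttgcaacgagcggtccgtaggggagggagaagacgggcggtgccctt

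Of the 261 microRNA genes, 25 had an IDR summit within 1000 bp of the 5′ end, a share of 9.58% (exact 95% interval 6.30 to 13.8). Over all annotated genes the share was 4.12%, and over protein-coding genes it was 4.25%. On X, 8 of 74 microRNA genes had one, 10.8% (4.78 to 20.2), beside 12.1% of all X genes and 10.3% of X protein-coding genes. On the autosomes, 17 of 187 had one, 9.09% (5.39 to 14.2), beside 2.95% of all autosomal genes and 3.29% of autosomal protein-coding genes. The lower bound of the autosomal share was therefore above the background of its chromosomes, whereas the X share lay close to that of other X genes. This did not hold when the summit had to be closer to the microRNA gene than to any gene of another biotype (4.81%, interval 2.22 to 8.94), or when the peak had to overlap the gene (3.74%, 1.52 to 7.56), for which the background was not recomputed. The X share divided by the autosomal share was 1.19 for microRNA genes and 3.13 for protein-coding genes. Intervals count genes as if each were independent and cover counting error only. No test was made over the members, which share peaks and are not replicates.

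Counting neighbours as 1 locus, by chaining genes of the same strand that lay within 5000 bp, left 216 loci. Of the X loci, 5 of 54 had an IDR summit, and of the autosomal loci, 15 of 162 did, the same share of 9.26% (X interval 3.08 to 20.3, autosomal interval 5.28 to 14.8). Genes on opposite strands stayed separate loci, so this count does not remove all sharing of peaks. On X, F09A5.15 and the locus of mir-54 to mir-56 were each counted through the same peaks. On the autosomes, mir-8186.1 and mir-8186.2 were each counted through the same summit. The equal shares rest on this way of counting. By chromosome, the genes with a summit were 3 of 33 on I, 6 of 49 on II, 3 of 27 on III, 3 of 50 on IV and 2 of 28 on V. The autosomal genes with a summit were thus spread over all 5 autosomes.

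How X stood beside the autosomes changed with the distance allowed. Within 250 bp, 1 X gene (1.35%) and 8 autosomal genes (4.28%) had an IDR summit, and within 100 bp 0 X genes (interval up to 4.86%) and 4 autosomal genes (2.14%) did. At these short distances the microRNA share was lower on X, but it rested on 0 and 1 X genes and the intervals overlap. Within 250 bp the intervals were 0.0342 to 7.30 on X and 1.86 to 8.26 on the autosomes. The protein-coding share was higher on X, at 4.54% beside 1.33% within 250 bp. Within 500 bp, 6 X genes (8.11%) and 16 autosomal genes (8.56%) had an IDR summit. Within 2000 bp, 21 X genes (28.4%, interval 18.5 to 40.1) and 27 autosomal genes (14.4%, 9.74 to 20.3) had one, beside 15.3% and 4.95% of the protein-coding genes. Within 5000 bp the shares were 47.3% and 23.5% for microRNA genes and 27.4% and 9.49% for protein-coding genes. The ratio of the X to the autosomal share was 0 at 100 bp, 0.316 at 250 bp, 0.948 at 500 bp, 1.97 at 2000 bp and 2.01 at 5000 bp for microRNA genes. For protein-coding genes it was 4.34 at 100 bp, 3.42 at 250 bp and between 2.88 and 3.24 from 500 to 5000 bp. By locus the microRNA ratio was 1.5 at 2000 bp.

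**Figure D1:**
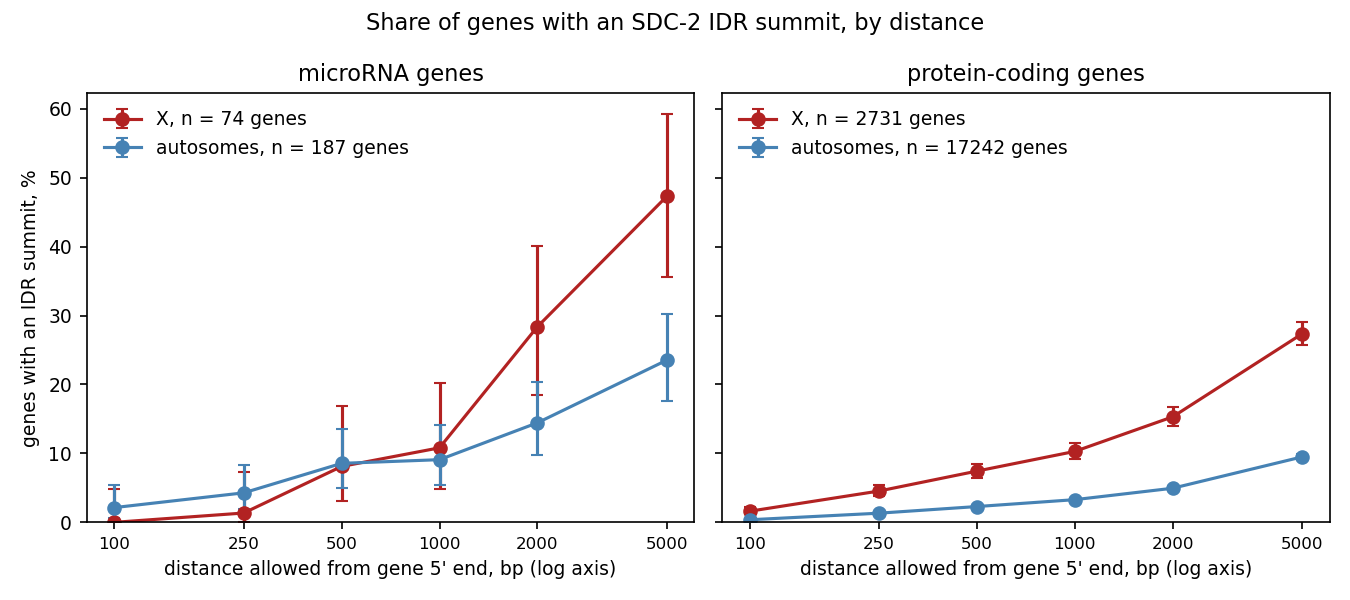
The percentage of genes with an IDR summit (vertical axis) is plotted against the distance allowed from the gene 5′ end in bp (log axis), for microRNA genes (left) and protein-coding genes (right), with X in red, autosomes in blue and bars giving exact 95% intervals. The microRNA line for X lies below that for autosomes at 250 bp (1.35% and 4.28%), near it at 1000 bp (10.8% and 9.09%) and above it at 2000 bp (28.4% and 14.4%), with overlapping intervals at all 3, whereas the protein-coding line for X is the higher at every distance.

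The 13 X genes that entered between 1000 and 2000 bp lay in 7 loci beside 8 peaks. They included let-7, with a summit 1852 bp upstream (pooled signal 143.7, rank 410), and mir-81, with one 1602 bp downstream (signal 133.9, rank 475). The summit beside mir-2221 had a signal of 3571 (rank 29) at 1266 bp upstream, and that beside mir-2212 and mir-1819 had 4305 (rank 23) at 1815 and 1941 bp upstream. These were far above the 454.5 of the strongest summit within 1000 bp of any microRNA gene. The remaining genes were mir-800, mir-392 and, in a single cluster, mir-4807, mir-4808, mir-1018, mir-4925, mir-4923.2 and mir-4923.1. None of the 50 strongest IDR peaks on X had a summit within 1000 bp of a microRNA gene 5′ end, and their median distance to the nearest was 67945 bp. Such summits were rare at any strength, as just 5 of all 563 IDR peaks on X had one.

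At the 1000 bp limit itself, the last genes inside were mir-74 (535 bp), mir-354 (854 bp) and mir-4921 (932 bp), and the first outside were mir-353 (1024 bp), mir-392 (1031 bp) and mir-4923.1 (1035 bp). The pooled signals of their summits were 93.2, 121.2 and 454.5 inside and 93.4, 184.9 and 454.5 outside. The summit near mir-4921 and that near mir-4923.1 is the same peak, so the limit runs through that cluster.

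The 25 genes shared 20 summits in 19 peaks, 5 on X and 15 on autosomes. None of the summits lay inside a hairpin, although 8 of the 20 belonged to a peak that overlapped one. The strongest summit was upstream of the 5′ end for 21 of the 25 genes (84%), beside 727 of 848 protein-coding genes (85.7%), and its median position was 248 bp upstream. The 4 genes with it downstream were mir-4921, F09A5.15, mir-1824 and mir-8186.1. For 11 of the 20 summits the 5′ end of a gene of another biotype was nearer than that of the microRNA gene, in most cases that of a noncoding RNA gene. Among the summits, 12 lay outside protein-coding genes, 8 in introns and 0 in exons.

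**Figure D2:**
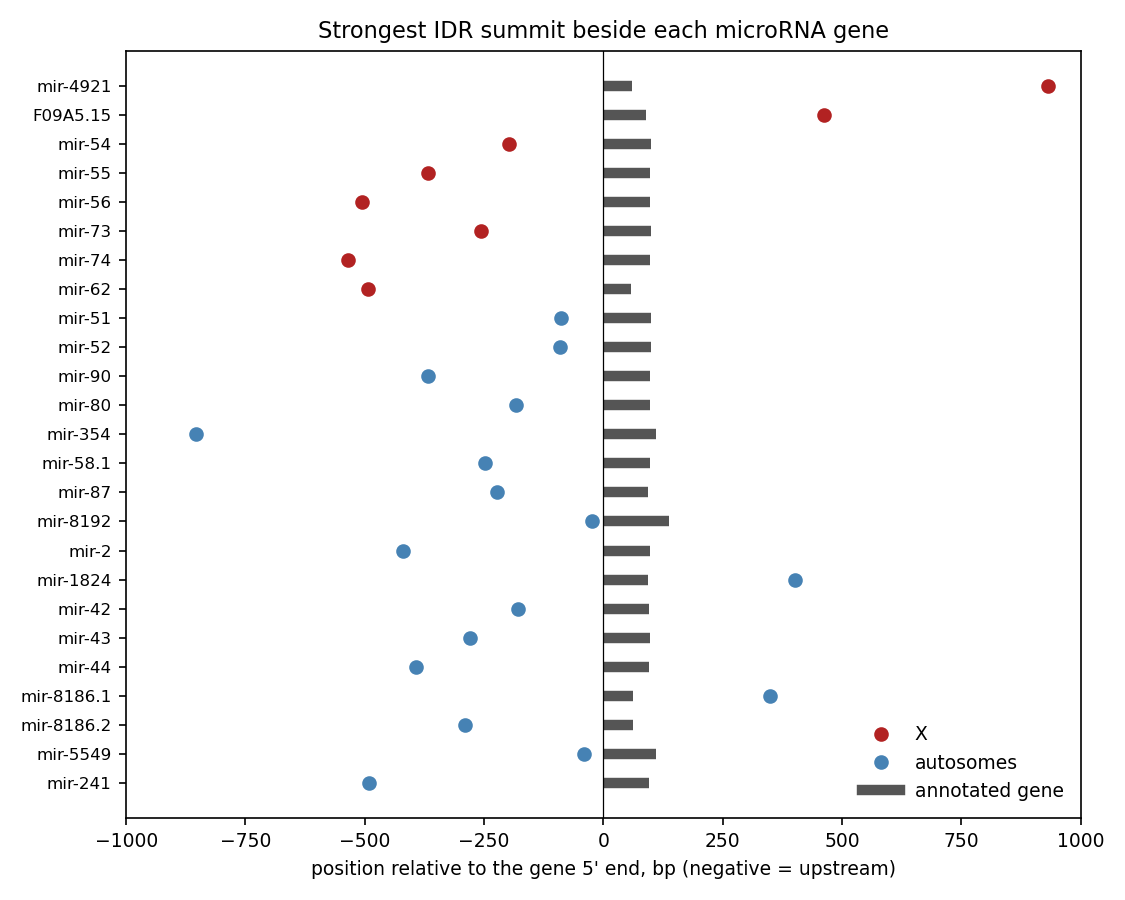
Each row is 1 of the 25 microRNA genes, the horizontal axis is the position in bp from the 5′ end along the gene's strand, dots are the strongest IDR summit (red X, blue autosomes) and grey bars the annotated gene. Of the 25 dots, 21 lie to the left, upstream of the 5′ end, and none lies on a grey bar.

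The mir-51 family had the most members with a summit, 5 of 6, at 3 places in the genome. At mir-51 the summit lay 89 bp upstream with a pooled signal of 331.2 (rank 108), and in the replicates the signals were 170.0 (rank 106) and 162.8 (rank 120). It was the 14th strongest autosomal IDR peak and stood 18 bp from the 5′ end of the noncoding RNA gene F36H1.17. At mir-52 the summit lay 92 bp upstream with a pooled signal of 271.3 (rank 138) and replicate signals of 135.5 (rank 134) and 136.2 (rank 161). The mir-52 summit stood 50 bp from the 5′ end of another noncoding RNA gene, which was nearer than that of mir-52. Both mir-51 and mir-52 are intergenic, that is outside protein-coding genes, and both summits kept close ranks in the replicates.

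A second summit in the mir-52 peak, 112 bp downstream of the 5′ end, behaved differently. Its pooled signal was 86.6 (rank 1213), and its replicate signals were 19.7 (rank 10627) and 66.0 (rank 581). It was high in replicate 2 alone, and it stood 30 bp from the 5′ end of a further noncoding RNA gene.

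The X members mir-54, mir-55 and mir-56 lie in a row in an intron of F09A5.3, on the opposite strand. A summit lay 198 bp upstream of mir-54, and 21 bp from the 5′ end of the noncoding RNA gene F09A5.11. It had a pooled signal of 173.7 (rank 295) and replicate signals of 61.8 (rank 524) and 114.9 (rank 214). Another lay on the far side of the row, 354 bp downstream of the 5′ end of mir-56, with a pooled signal of 123.5 (rank 544) and replicate signals of 49.5 (rank 851) and 85.0 (rank 368). The row was thus flanked by summits in all lists, each with a better rank in replicate 2. The annotated microRNA gene F09A5.15 (chrX:13144830-13144919, plus) lies antisense to mir-55 and was counted through the same peaks, which carry no strand. The remaining family member, mir-53, lies in the same cluster as mir-51 but had no IDR summit. Its strongest pooled summit, 184 bp upstream, had a signal of 67.7 (rank 2138), with 38.9 (rank 1591) and 35.6 (rank 2600) in the replicates.

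**Figure D3:**
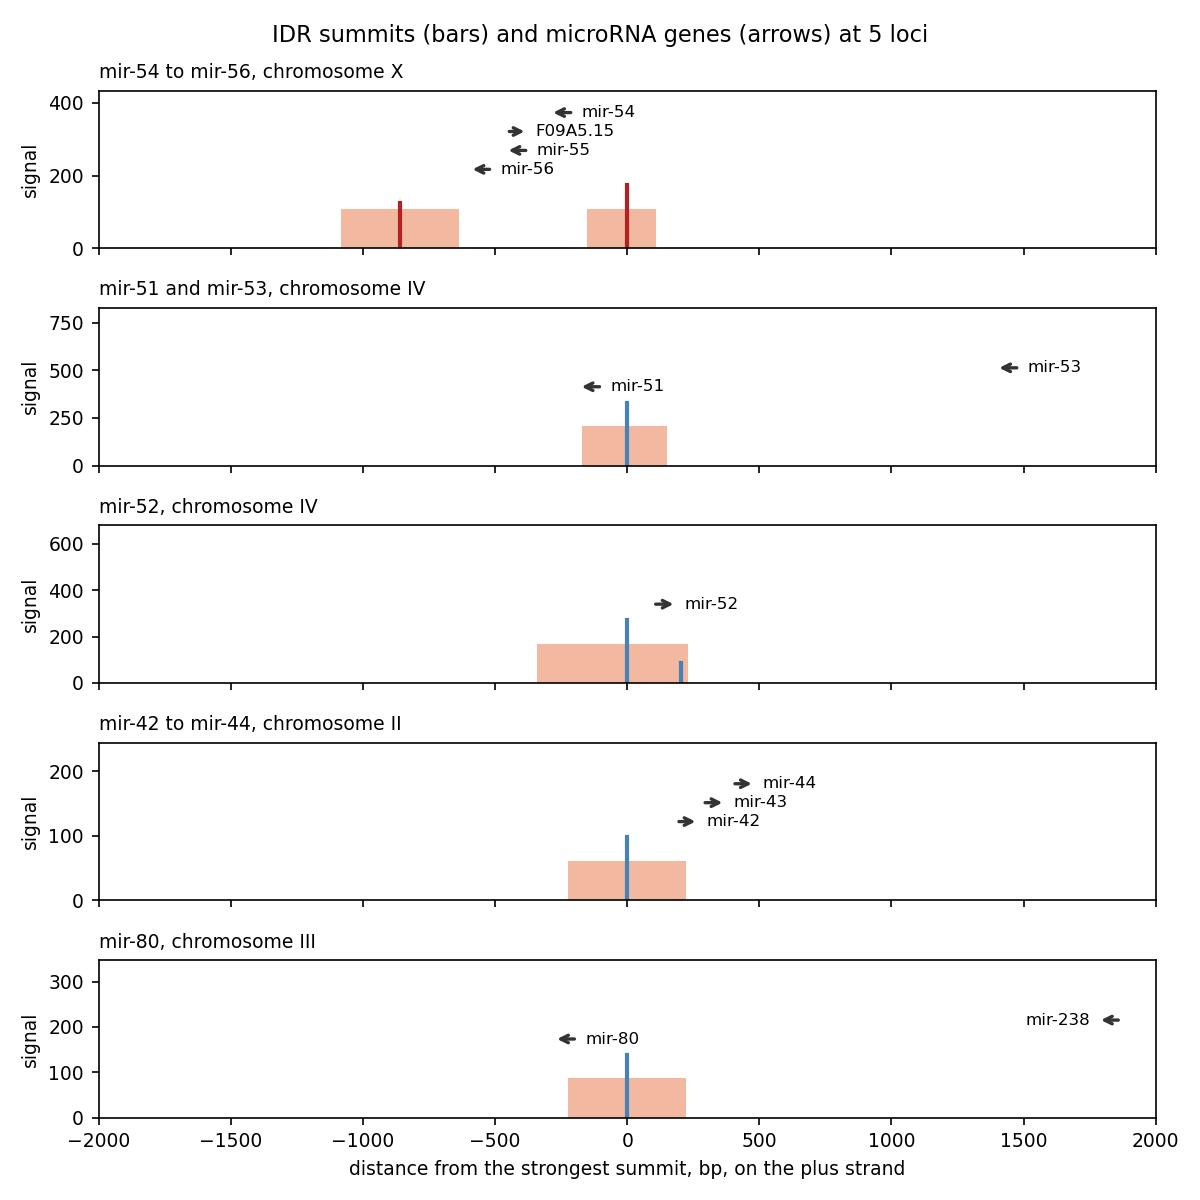
Distance in bp from the strongest summit along the plus strand is on the horizontal axis at 5 loci, with bars for IDR summits at the height of their pooled signal, shaded bands for the peak extent (band height has no meaning) and arrows for microRNA genes in their direction. The summits lie beside the hairpins, as with mir-51 at 331.2 and mir-52 at 271.3, and the row of mir-54, mir-55 and mir-56 has 1 on each side.

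The strongest summit beside an X microRNA gene was that near mir-4921 (chrX:1879979-1880038, plus), the last of a cluster of 11 genes from mir-4807 on. Its pooled signal was 454.5 (rank 75), and the replicate signals were 222.2 (rank 73) and 232.1 (rank 77). The summit lay 932 bp downstream of the 5′ end of mir-4921, beyond the hairpin, and 23 bp from the 5′ end of the tRNA gene Y59E1B.t2. The ranks were nearly equal in all lists. Within 1000 bp, mir-4921 was the single gene of the 11 with an IDR summit.

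The other X members had weak IDR summits. The summit 257 bp upstream of mir-73 and 535 bp upstream of mir-74, an intergenic pair with the shared seed GGCAAGA, had a pooled signal of 93.2 (rank 1030) and replicate signals of 66.7 (rank 454) and 49.5 (rank 1115). The nearest gene 5′ end of another kind, 205 bp away, was that of the noncoding RNA T24D8.11. That of mir-62, a mirtron whose hairpin is a spliced intron of ugt-50, lay 494 bp upstream with a pooled signal of 92.4 (rank 1051) and replicate signals of 56.7 (rank 642) and 38.1 (rank 2168). Both summits had a better rank in replicate 1 than in replicate 2, the reverse of the summits beside mir-54.

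Of these 4 bantam-related genes, mir-58.1 and mir-80 had IDR summits and mir-81 and mir-82, on X, had none within 1000 bp. The 3 other autosomal genes with the seed GAGAUCA, mir-58.2, Y73B6A.17 and mir-2209.1, had none either, so 1 of the 6 genes with that seed had one. At mir-80 (intergenic) the summit lay 184 bp upstream with a pooled signal of 138.8 (rank 439) and replicate signals of 51.3 (rank 785) and 88.2 (rank 334). At mir-58.1, in an intron of phkb-1 on the same strand, it lay 248 bp upstream with a pooled signal of 120.2 (rank 568) and replicate signals of 54.1 (rank 699) and 70.6 (rank 499). The strongest pooled summits at mir-81 and mir-82 had signals of 29.9 (rank 15951) and 26.9 (rank 19682), both under the median of the pooled list, 32.6. The nearest other genes to the summits at mir-80 and mir-58.1 were the noncoding RNAs K01F9.6, 283 bp away, and Y67D8A.6, 156 bp away.

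On the same chromosome and strand as mir-80, mir-90 (chrIII:8873987-8874084) lies in an intron of K01F9.2. Its summit, 368 bp upstream, had a pooled signal of 148.3 (rank 391) and replicate signals of 66.5 (rank 457) and 82.7 (rank 385), and the next gene, the noncoding RNA K01F9.7, was 492 bp away. With mir-62 and mir-50 it shares the seed GAUAUGU, and 2 of these 3 genes had an IDR summit. The summit of mir-87 (chrV:12038688-12038781, minus), in an intron of kup-1, lay 224 bp upstream with a pooled signal of 119.1 (rank 584) and replicate signals of 57.6 (rank 628) and 60.05 (rank 727). Here too the replicate ranks were close, and the noncoding RNA gene F10C2.11 was 352 bp from the summit.

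The closest summit to a 5′ end was that of mir-8192 (chrII:6943885-6944021, plus), in an intron of flcn-1, at 25 bp upstream. It had a pooled signal of 110.7 (rank 687) and replicate signals of 41.9 (rank 1279) and 67.8 (rank 548). The nearest 5′ end of another kind, that of the pseudogene F22D3.5, was 4991 bp away. The summit near mir-354, a hairpin that overlaps an exon of rps-20, was the least reproducible of the stronger ones. It lay 854 bp upstream and 155 bp from the 5′ end of ekl-4, with a pooled signal of 121.2 (rank 560) and 70.0 (rank 507) in replicate 2. Replicate 1 had no summit within 100 bp of it, and the strongest within 1000 bp of the gene had a signal of 20.1 (rank 10150).

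The mir-35 family is needed for embryonic development, and its 8 genes share the seed CACCGGG. Of these, mir-42 alone had an IDR summit, 180 bp upstream, with a pooled signal of 97.8 (rank 913) and replicate signals of 32.3 (rank 2693) and 65.6 (rank 590), so that replicate 2 ranked it higher. The same summit served mir-43 (279 bp) and mir-44 (392 bp), which follow on the same strand and have other seeds. The cluster of mir-35 to mir-41 lacked an IDR summit within 1000 bp of each gene. The strongest pooled summit for mir-35 to mir-40 had a signal of 70.9 (rank 1912), and its IDR neighbour lay 1956 bp upstream of mir-35 with a signal of 100.6 (rank 855).

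Of the 4 let-7 family genes printed above, mir-241 had an IDR summit and let-7, mir-48 and mir-84 did not. Another gene with the seed GAGGUAG, mir-795, had no summit within 1000 bp in any list. The summit of mir-241 lay 492 bp upstream, and 164 bp from the 5′ end of the noncoding RNA gene F56A12.8. It had a pooled signal of 83.3 (rank 1319) and replicate signals of 53.7 (rank 704) and 24.6 (rank 7111). It thus stood near the end of the IDR list and was high in replicate 1 alone. The pooled signals at the other 3 were 63.6 (rank 2557) at mir-48, 48.0 (rank 5345) at let-7 and 27.5 (rank 18834) at mir-84. At lin-4, the first microRNA described, the strongest pooled summit had a signal of 41.9 (rank 7535), and at mir-237, which shares its seed, 65.2 (rank 2386).

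Over the whole panel of 29 well-known microRNA genes, 9 had an IDR summit (31.0%) and 27 a pooled summit, beside 4.12% and 37% of all genes and 9.58% and 51.7% of all microRNA genes. The panel was drawn up with earlier results of these data known. Those without a pooled summit were lsy-6, which sets the asymmetry of a pair of taste neurons, and mir-34, which acts in stress responses. The pooled signal was 77.2 (rank 1573) at the muscle microRNA gene mir-1, 75.5 (rank 1657) at mir-71, which acts in ageing, and 49.5 (rank 4901) at mir-124, expressed in sensory neurons. These 3 genes lay below the lowest signal of the IDR list, 82.4.

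**Figure D4:**
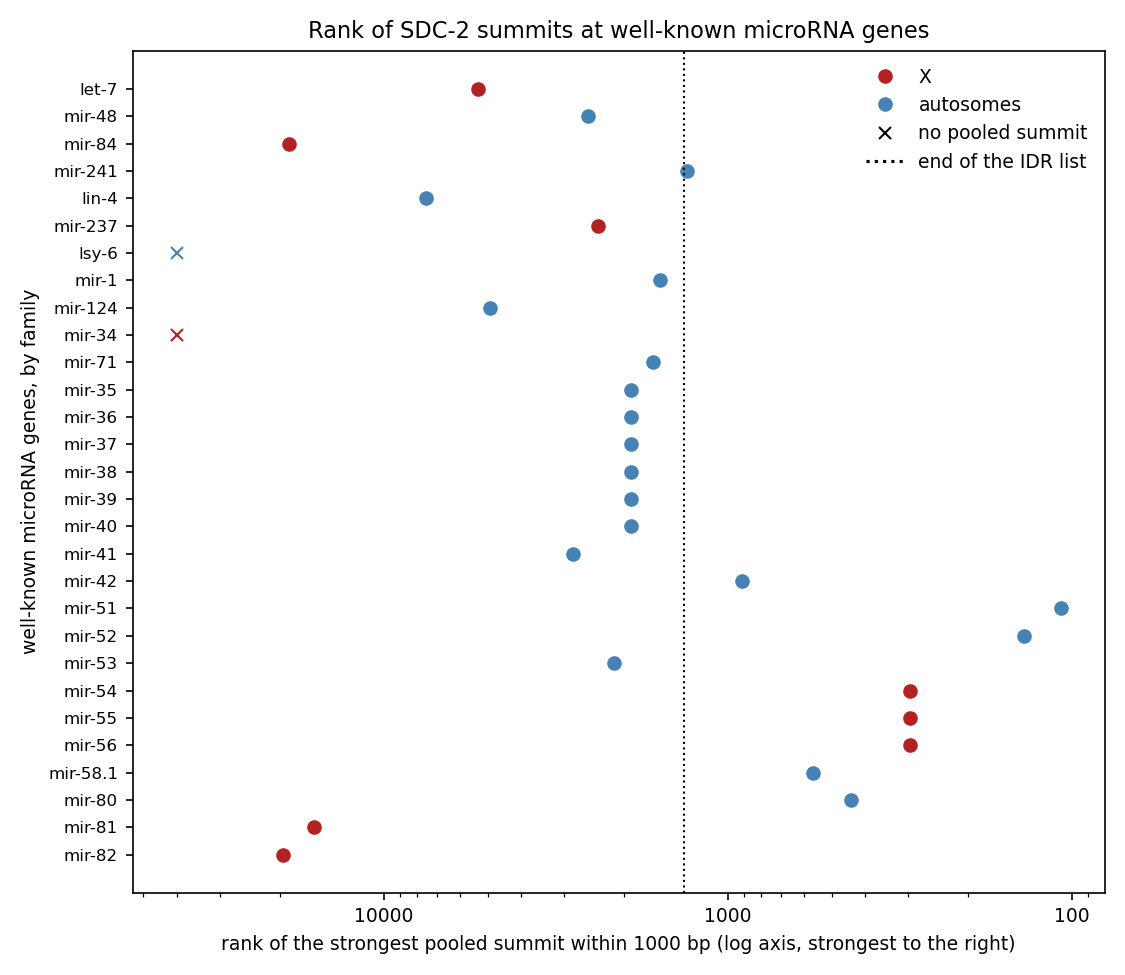
The rank of the strongest pooled summit within 1000 bp (log axis, strongest to the right) is plotted for the 29 panel genes, with X in red, autosomes in blue, crosses for lsy-6 and mir-34 without a pooled summit (set at the left edge), and a dotted line at the 1344 peaks of the IDR list. The 5 members of the mir-51 family other than mir-53 lie right of the line together with mir-58.1, mir-80, mir-42 and mir-241.

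The other 5 autosomal genes shared 4 summits. The pooled signal was 110.6 (rank 688) at mir-2, in an intron of ppfr-1, and 105.5 (rank 757) at mir-1824, in an intron of Y87G2A.18 on the opposite strand. The mir-2 summit lay 420 bp upstream and 86 bp from the 5′ end of the noncoding RNA gene F16A11.5. That of mir-1824 lay 401 bp downstream, outside protein-coding genes and 66 bp from the 5′ end of Y87G2A.18. At mir-8186.1 and mir-8186.2, which are annotated on opposite strands of nearly the same bases, the pooled signal was 96.4 (rank 946). At mir-5549 it was 91.4 (rank 1074), with the summit 41 bp upstream and 127 bp from the 5′ end of rfc-4. Replicate signals at these 4 summits ran from 41.4 to 56.5 in replicate 1 and from 43.3 to 55.2 in replicate 2.

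**Figure D5:**
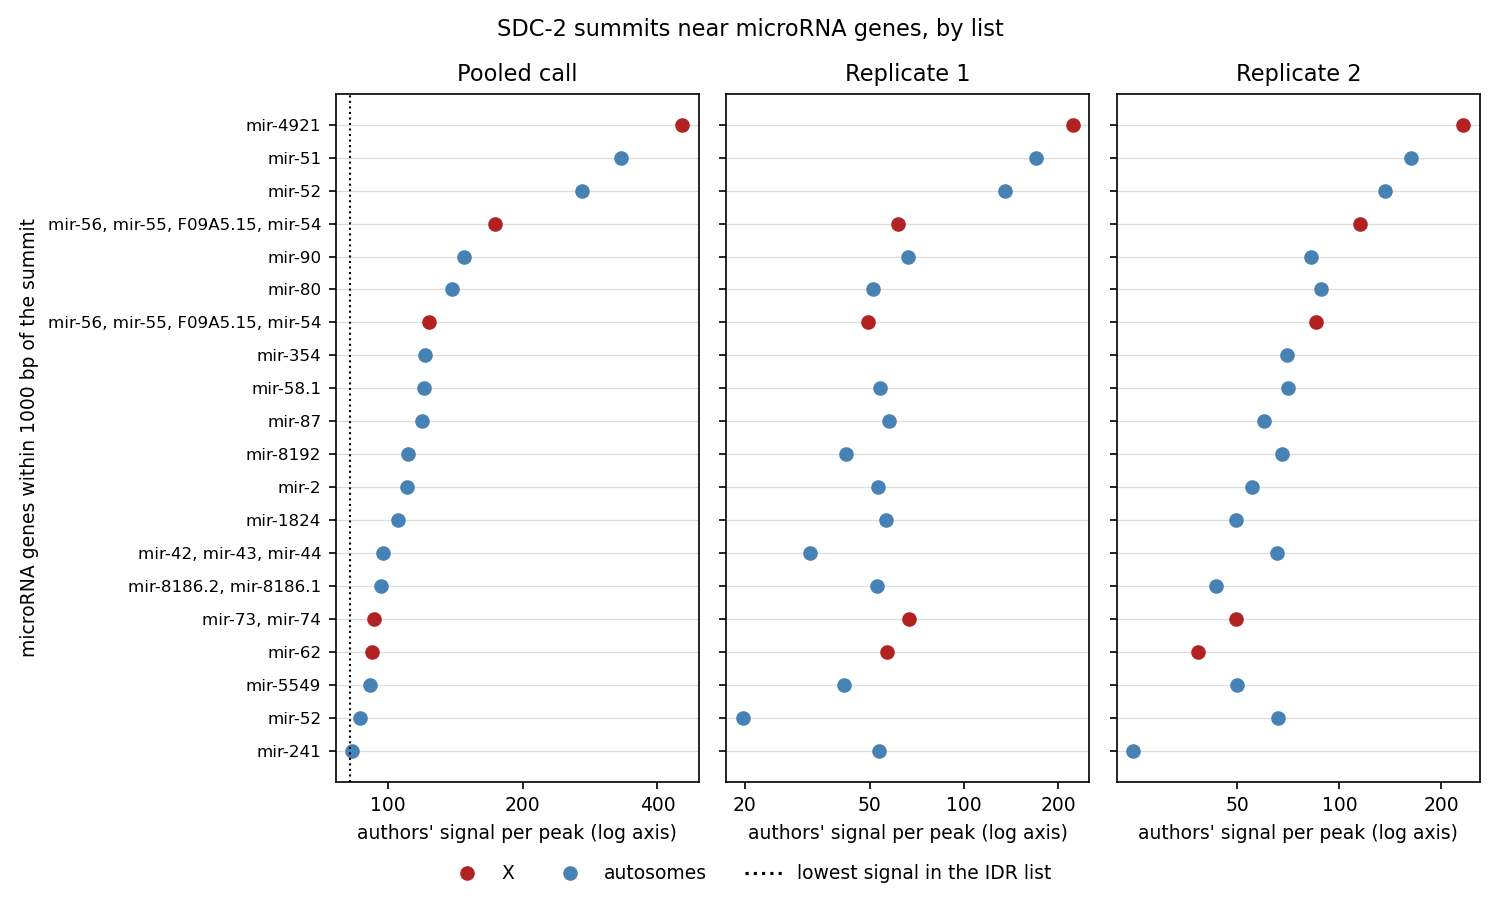
The authors' signal per peak (log axis, a separate scale for each list) is plotted for the 20 summits, labelled by the microRNA genes within 1000 bp, in the pooled call (dotted line at the lowest IDR signal, 82.4), replicate 1 and replicate 2, with X in red and autosomes in blue. The summits near mir-4921, mir-51 and mir-52 are the 3 highest in each panel, the second mir-52 summit is low in replicate 1 (19.7), the mir-241 summit is low in replicate 2 (24.6), and mir-354 has no matched summit in replicate 1.

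Over the 25 genes the median pooled signal of the strongest summit was 110.7 (exact 95% interval 97.8 to 148.3), beside 110.3 for protein-coding genes with an IDR summit. On X it was 173.7 over 8 genes, of which 4 share 1 peak, beside 130.7 for X protein-coding genes. Over the 5 X summits it was 123.5, beside 134.9 for all X IDR peaks. For autosomal microRNA genes it was 110.6 (97.8 to 121.2), beside 105.7. The members' summits were thus of middling strength, and 10 of the 20 ranked above the middle of the IDR list. The median distance from the 5′ end to the nearest IDR summit was 7027 bp for X and 28106 bp for autosomal microRNA genes, and 12399 and 43920 bp for protein-coding genes.

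Of the 20 summits, 19 had a summit within 100 bp in replicate 1 and 20 in replicate 2. Among the 1344 strongest peaks of each replicate, 21 of the 25 genes had a summit within 1000 bp in replicate 1, 21 in replicate 2 and 17 in both. The genes missing from replicate 1 were mir-354, mir-42, mir-43 and mir-44, and those missing from replicate 2 were mir-241, mir-62, mir-8186.1 and mir-8186.2.

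In the pooled list, which also holds background, 135 of the 261 genes had a summit (51.7%, interval 45.5 to 57.9), beside 37% of all genes. The share was 51.4% on X and 51.9% on the autosomes, beside 52.5% and 41.6% of protein-coding genes. In replicate 1, 142 genes had a summit (54.4%), beside 36.5% of all genes, with 44 X genes and 98 autosomal genes beside 52% and 40.9% of protein-coding genes. In replicate 2, 160 genes had one (61.3%), beside 35.7% of all genes, with 45 X genes and 115 autosomal genes beside 49.1% and 39.3% of protein-coding genes. In both replicates 124 genes had a summit. The share was above that of all genes in each of these lists. The median pooled signal was 48.0 (42.7 to 53.3) for the 135 genes and 36.4 for protein-coding genes.

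By location, 11 of the 97 genes inside introns of protein-coding genes had an IDR summit (11.3%, interval 5.80 to 19.4), as did 13 of the 152 intergenic genes (8.55%, 4.63 to 14.2) and 1 of the 12 that overlap an exon, mir-354. On X, 5 of 18 intronic and 3 of 55 intergenic genes had one, but 4 of those 5 share the peaks around mir-54. On the autosomes the counts were 6 of 79 intronic and 10 of 97 intergenic genes. Intronic genes on the strand of their host had a summit in 7 of 67 cases (10.4%) and those on the opposite strand in 4 of 30 (13.3%). The intervals of intronic and intergenic genes overlap, as do those of both strands. Among the 1344 strongest peaks of replicate 1 alone, without replicate 2, the intronic share was 19.6% (12.2 to 28.9) and the intergenic share 6.58% (3.20 to 11.8), and these intervals do not overlap. In replicate 2 alone the shares were 11.3% and 7.24%. The replicate 1 intervals count genes as independent, yet the intronic genes mir-35 to mir-41 were all counted through a single summit. Its signal of 41.7 (rank 1301) was close to the limit of 1344. Another summit, at rank 524, was shared by mir-54, mir-55, mir-56 and F09A5.15.

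Clustered genes, those with another microRNA gene of the same strand within 5000 bp, had an IDR summit in 12 of 69 cases (17.4%, interval 9.32 to 28.4), and single genes in 13 of 192 (6.77%, 3.65 to 11.3). Among all annotated genes the share was 4.12%, with 12.1% on X and 2.95% on the autosomes. The clustered share was 6 of 29 on X and 6 of 40 on the autosomes. Of the 24 loci of 2 or more genes, 7 had a summit, in each case within 1000 bp of at least 1 gene. These 7 were the loci of mir-42, mir-80, mir-51, mir-48 with mir-241, the 11 genes from mir-4807, mir-73, and mir-56. The intervals count genes as independent, yet the 12 clustered genes lie in these 7 loci. A cluster has more 5′ ends to meet a summit, which bears on the share of loci. Its genes can also share a summit, which bears on the share of genes. The part of either was not tested.

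Letters around the summits were searched 100 bp to either side, on both strands. AGACGCAG was present at 3 of the 20 summits, those near mir-8192, mir-1824 and mir-8186.2, beside 12.2% of all 1343 IDR peaks. GAGAGAGA was present at 2, near mir-90 and mir-58.1, beside 161 of those 1343. GCGCAGGG, the inner letters of MEX (the motif enriched on X), was found at 0 of the 20, an interval of up to 16.8%, beside 4.44% of X and 0.513% of autosomal IDR peaks. No window held more than 1 of the 3 motifs, so these matches do not overlap each other. The median GC content of the windows was 52.7% (range 34.8 to 62.7), beside 49.3% for all IDR peaks.

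Genes that make and use microRNAs, with rde-4 and ergo-1 of related small RNA pathways, were examined the same way. Of these 15 genes, 5 had an IDR summit within 1000 bp (33.3%, interval 11.8 to 61.6), beside the 4.25% of protein-coding genes. This list and that of the targets below were drawn up with earlier results of these data known, and no test was made. Among the 5, alg-1 and ain-1 lie on X, where 10.3% of protein-coding genes had one. The Argonaute genes alg-1 (pooled signal 116.2, rank 619) and alg-5 (229.9, rank 194) each had one, about as far upstream, at 782 and 781 bp. The others were ain-1 (331.8, rank 107) and ain-2 (102.6, rank 814), which encode the GW182-type partners of Argonaute, and nhl-2 (169.0, rank 310), a cofactor of silencing. The genes of the cutting enzymes, drsh-1 and dcr-1, and of the Drosha partner pash-1 had no IDR summit. The Argonaute genes alg-2 (strongest pooled summit at rank 8790) and ergo-1 (rank 5848) had none either. Of 12 well-known microRNA targets, sup-26 had one (149.7, rank 381), 742 bp upstream, whereas lin-14, lin-28, lin-41 and hbl-1 had none.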

How the data were processed

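ChIP-seq peak lists of 2 biological replicates in 1 group were used, in the ce11 build (WBcel235). According to the deposited README texts, lists of peaks and background were made by the authors from each replicate and from the pooled replicates, with a control alignment as input, and the IDR list comes from those lists. The deposited signal is the value that the authors' peak caller gave each peak. Neither aligner, nor caller, nor IDR threshold is stated in the sources used here. The deposited lists on ce10 were not used.

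Summits (peak start plus offset, counted from 1) were set against gene 5′ ends of Ensembl release 115. Symbols, matched by gene ID for all 261 genes, and mature sequences, present for 260, came from RefSeq on the same build. Neighbours on the same strand within 5000 bp formed a locus. Summits were matched between lists within 100 bp. Shares carry exact Clopper-Pearson 95% intervals and medians exact order-statistic intervals. With 1 group there was no contrast to test. Depth is unknown, so no interval covers it.

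All microRNA genes with an IDR summit are named, with values in every list for the 8 strongest on X and the 8 strongest on autosomes, next to a panel of well-known microRNA genes, machinery and targets. Members and lists were chosen with earlier results of these data known. Assignment was tested on simulated data with 200 planted summits, and 20234 of 20234 genes were right. Alternatives were other distances, overlap, the stronger part of the list, single replicates, other chaining and the exclusion of summits nearer to other genes. Python 3.11.15, numpy 2.4.6, scipy 1.17.1 and matplotlib 3.10.9 were used.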

Additional observations from a re-analysis of the deposited data

How the results depend on the processing

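Of 57 alternative values, 41 stayed within 1.5 times the count or within the interval of the value reported, and 16 moved, and the cause was not tested. Within 2000 bp, 48 genes and 33 loci had an IDR summit (28.4% of X, 14.4% of autosomal and 19.7% of intergenic genes), and 69.7% of genes had a pooled summit. Within 500 bp, 42.5% had a pooled summit. The stronger 50% of the IDR list left 12 genes, 3.74% of the autosomal ones. Requiring the peak to overlap the gene left 7 genes, 0% on X and 3.74% (interval 1.52 to 7.56) on the autosomes. Requiring the summit to be closer to the microRNA gene than to any gene of another biotype left 14, 4.81% (2.22 to 8.94) on the autosomes. Both lower bounds lie under the 3.29% of autosomal protein-coding genes at the reported setting. In the single replicates, each leaving out the other, intronic genes with a summit among the 1344 strongest peaks were 11.3% to 19.6%, and genes with a summit in the whole replicate list were 54.4% to 61.3%. The 19.6% came without replicate 2, where intergenic genes were at 6.58% and the intronic genes mir-35 to mir-41 were counted through a single summit. The 3 settings added after the data were seen moved no value. Among them, counting the 5′ end of every annotated transcript record of a gene gave 28 genes. As 254 genes are annotated only as a hairpin, most of these ends are not starts of primary transcripts. No paired analysis was possible because all samples belong to 1 group. The lists hold no read counts, so a gene without a summit was not detectable as bound at an unknown depth.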

Other observations

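Genes were also split by name, a choice made after their values were seen. Those with a mir number under 100, with let-7, lin-4 and lsy-6, had an IDR summit in 16 of 59 cases (27.1%, exact 95% interval 16.4 to 40.3), and those numbered from 100 in 9 of 202 (4.46%, 2.06 to 8.29). The share of all annotated genes was 4.12%, close to that of the genes numbered from 100. On X the counts were 6 of 15 and 2 of 59, and on the autosomes 10 of 44 and 7 of 143. Of all genes, 12.1% on X and 2.95% on the autosomes had one. The intervals count genes as independent, yet several share peaks, such as mir-42 to mir-44 and mir-54 to mir-56. Low numbers were given to the microRNAs cloned first.

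By mature sequence, 19 of the 109 genes whose seed also occurs in another microRNA gene had an IDR summit (17.4%, interval 10.8 to 25.9), and 6 of the 152 others did (3.95%, 1.46 to 8.39), a split also made after the values were seen. The share of all annotated genes was 4.12%, close to that of the 152. The mir-51 family gave 5 of the 19, and these intervals also count genes that share peaks as independent. In replicate 2, 57 of the 69 clustered genes had a summit anywhere in the list (82.6%, interval 71.6 to 90.7), whereas in replicate 1 it was 44 of 69 (63.8%, 51.3 to 75.01). Single genes had one in 53.6% of cases in replicate 2 and 51.0% in replicate 1, beside 35.7% and 36.5% of all genes. In the pooled list 55.1% of clustered and 50.5% of single genes had one. Clustered genes can share a summit, as mir-35 to mir-41 do in replicate 2 (rank 3694).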
